A study of Zea mays with 68 samples.

Results

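Transcript levels in the vegetative shoot apex of maize were compared with those in the stem. The plants were the inbred line B73, the line behind the maize reference genome, and no treatment is given in the labels. The apex group holds 2 libraries of vegetative meristem harvested along with its surrounding tissue, so it is not the meristem alone. The stem group holds 6 libraries, 3 labelled internode 6-7 and 3 labelled internode 7-8, taken as one. Members were chosen by the names of the columns in the deposited table. These 8 libraries belong to a series of 68 samples of 23 tissues, profiled by RNA-seq. The meristem columns were read as the initials of their tissue name, and every statement rests on that reading. The internode columns carry numbers that do not match those of the sample titles, so each is called by the number it carries. The labels do not say whether libraries of one tissue come from different plants. The p-values therefore reflect library-to-library spread, and that spread may be technical. Because the stem is taken as one group, its spread also holds any difference between internode 6-7 and internode 7-8.

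A vegetative shoot apex is a small dome of dividing cells that forms leaves on its flanks and stem tissue below. KNOX homeobox proteins such as knotted1 keep cells of the dome and of the young stem undetermined. YABBY and KANADI proteins act in the polarity of a leaf primordium, not always on the same face. Growth-regulating factors with their GIF partners act in the growth of young leaves. An internode lengthens by division and expansion of cells. Its cells lay down cellulose along tracks set by microtubules, and its vascular strands and outer cells later make lignified walls.

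Expression is given as FPKM, a fragment count scaled to transcript length and to the size of the library, a level that can be compared between genes of different length. Among 109715 gene rows, 28146 reached 1 FPKM in at least 2 of the 8 libraries and were tested. The 2 meristem libraries alone could carry a gene through this filter. Some genes counted as higher below were thus tested only through the side where they are high. This holds for each gene below whose stem values all lie under 1 FPKM. Summed FPKM per library ran from 1043810 to 1077430 in meristem and from 912846 to 976789 in stem, and the 10 most abundant genes held 4.57% to 4.58% of it in meristem and 3.27% to 5.14% in stem. Depth in reads is unknown. Pearson's r of log2(FPKM + 1) across the tested genes, which are not independent replicates, was 0.953 between the meristem libraries and 0.931 to 0.975 between stem libraries. Between meristem and stem it lay at 0.833 to 0.886, and internode 7-8 library 3 had the highest of these values.

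The labelled tissues were first checked against marker genes. Of 6 leaf primordium markers, 3 had a match by name (yab14, ns1 and GRF12), and their summed level was 207 to 208 FPKM in meristem libraries against 9.04 to 23.3 FPKM in stem libraries. Most of that sum was GRF12. For the 6 epidermal genes matched, the sum was 98.1 to 104 FPKM in meristem against 8.92 to 12.8 FPKM in stem. The 7 shoot meristem markers did not set the meristem libraries apart, with sums of 301 to 307 FPKM in meristem against 360 to 609 FPKM in stem. Among 20 expansin, cellulose synthase and dwarf genes used as stem markers, 3 were higher and 8 lower in meristem, and the sums were 499 to 503 FPKM in meristem against 494 to 764 FPKM in stem. Markers of mature green leaf summed to 24.7 to 36.5 FPKM in meristem against 85.3 to 529 FPKM in stem, and those of phloem to 485 to 531 FPKM against 823 to 3636 FPKM. Flower markers summed to 15.8 to 17.9 FPKM in meristem, most of it from zmm16, against 4.50 to 8.53 FPKM in stem, and pollen markers stayed between 1.61 and 6.56 FPKM in all 8 libraries. In bulk tissue, fewer cells of a type and less RNA per cell cannot be told apart.

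The apex held more transcript of many regulators of leaf and epidermis, and the stem more transcript for cellulose synthases, certain tubulins and light-harvesting proteins. A gene was called changed where limma's adjusted p was under 0.05 and the difference of mean log2(FPKM + 1) was at least 1. By this rule 4113 genes, or 14.6% of those tested, were higher in meristem and 1619 genes, or 5.75%, were lower. Both meristem values lay above all 6 stem values in 33.1% of tested genes and below all 6 in 16.9%. Most called genes were separated in this way, 4079 of the 4113 higher and 1555 of the 1619 lower, so a lack of overlap is usual for a called gene. Among the 2103 tested genes with a name, 14.1% were higher and 8.51% lower. At least 1 FPKM in both meristem libraries with a value listed at 0 in all 6 stem libraries was found for 42 genes. The reverse, 0 in both meristem libraries with at least 1 FPKM in all 6 stem libraries, was found for 8 genes. With unlike numbers of libraries on each side, these counts cannot be compared with each other.

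**Figure D1:**
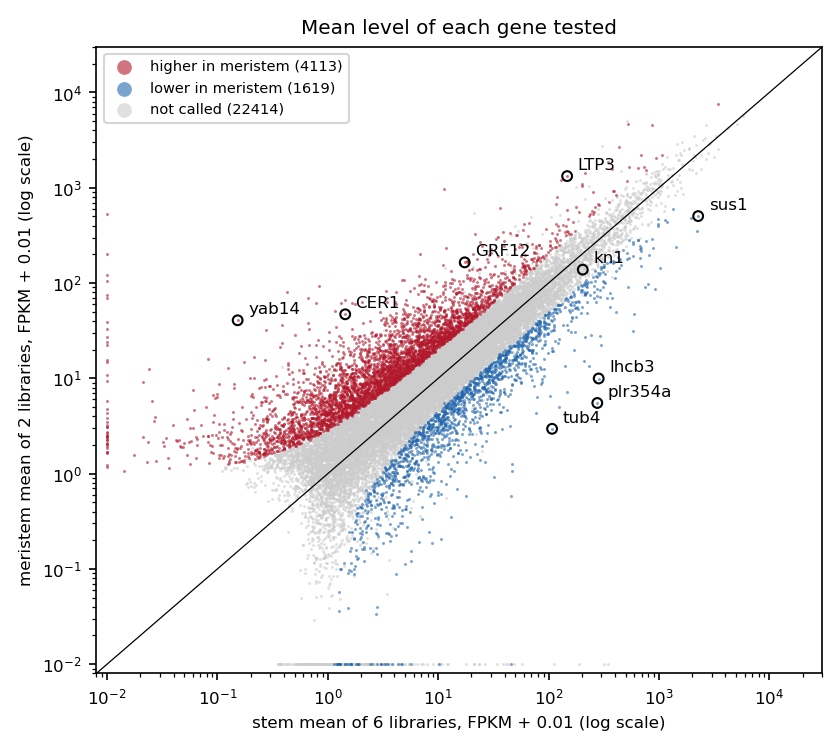
Each point is 1 tested gene, with the stem mean (n = 6 libraries) on the x axis and the meristem mean (n = 2 libraries) on the y axis, in FPKM + 0.01 on log scales, and the diagonal marks equal levels. Red points are the 4113 genes called higher in meristem, blue points the 1619 called lower and grey points genes not called, with 9 genes of the text circled.

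The median difference over all tested genes was 0.18 on the log2 scale, so the deposited values lean toward the meristem. Dividing each library by its median-of-ratios factor (1.09 and 1.13 for the meristem libraries, 0.888 to 1.04 for the stem libraries) brought that median to 0.01. After this scaling 3117 genes (11.1%) were higher in meristem and 2240 (7.96%) lower. The share of changed genes that were higher was thus 71.8% with deposited values and 58.2% with scaled values. Every gene called higher after scaling was among those called higher before it, 1618 genes were lower in both versions, and 0 genes changed direction. List counts below are given for deposited values, with the scaled count where it differs. They are to be read beside the shares of all tested genes, 14.6% higher and 5.75% lower (scaled 11.1% and 7.96%).

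Among named genes, the largest increase in meristem was that of yab14 (GRMZM2G005353), a YABBY transcription factor of the leaf. It had 43.9 and 37.3 FPKM in meristem, against 0 in each internode 6-7 library and 0.155 to 0.362 FPKM in internode 7-8. The log2 difference was 5.20 ± 0.20 (SE, adjusted p = 1.9e-06), and the groups were far apart. CER1 (GRMZM2G099097), named for an enzyme of wax alkane synthesis known in Arabidopsis, followed with 41.1 and 52.8 FPKM in meristem against 0.998 to 1.73 FPKM in stem (median 1.53, log2 difference 4.31 ± 0.20, adjusted p = 5.3e-06). OFP16 (GRMZM2G055257), of the OVATE family of transcriptional repressors, had 35.3 and 34.6 FPKM in meristem against 0.341 to 2.73 FPKM in stem. ZAR1 (GRMZM2G446201), of the ARGOS family of organ size regulators, had 31.2 and 15.3 FPKM in meristem against 0.0381 to 0.655 FPKM in stem. TCP30 (GRMZM2G166946), of the TCP family of growth regulators, had 20.2 and 13.4 FPKM in meristem against 0.12 to 0.257 FPKM in stem. The remaining members of this set were IG1 (GRMZM2G118250), a LOB-domain factor that limits proliferation in the maize embryo sac and acts in leaves, mlo3 (GRMZM2G031331), of the Mlo membrane protein family, and HDZIV14_OCL14 (GRMZM2G145690), an HD-ZIP IV homeobox gene. Their log2 differences were 3.76, 3.64 and 3.59. For each of these 8 genes the call was kept under every alternative tried. However, yab14, ZAR1, TCP30, IG1, mlo3 and HDZIV14_OCL14 stayed under 1 FPKM in every stem library. They passed the level filter through the meristem libraries alone, the side where they are high, so a high meristem level is part of how they were chosen.

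The largest decrease was that of plr354a (GRMZM2G049915), a gene also listed under names of a proline-rich protein and of a splicing factor, so that its identity is uncertain. It had 2.93 and 8.07 FPKM in meristem against 113 to 472 FPKM in stem (median 239, log2 difference -5.38 ± 0.52, adjusted p = 0.0002). The beta-tubulin gene tub4 (GRMZM2G066191) had 3.65 and 2.23 FPKM in meristem against 45.6 to 178 FPKM in stem (median 96.8, log2 difference -4.59 ± 0.55, adjusted p = 0.00053). Next came the light-harvesting genes lhcb3 (GRMZM2G155216), lhcb6 (GRMZM2G092427) and lhcb7 (GRMZM2G402936), with log2 differences of -4.37, -3.67 and -3.37. The benzoxazinoid glucosidase gene glu1 (GRMZM2G016890) had 45.5 and 10.8 FPKM in meristem against 87.8 to 487 FPKM in stem (median 187). CNR7 (GRMZM2G119755), of a family of cell number regulators, had 3.04 and 1.34 FPKM in meristem against 18.2 to 38.1 FPKM in stem, and cl2-2 (GRMZM2G034724) had 2.27 and 0.947 against 12.0 to 36.5 FPKM. These and the 8 increases were taken from genes whose groups did not overlap, so their separation is part of how they were chosen. Without meristem library 1 the adjusted p of lhcb7 was 0.053, and without meristem library 2 that of glu1 was 0.093 with a log2 difference of -2.17.

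**Figure D2:**
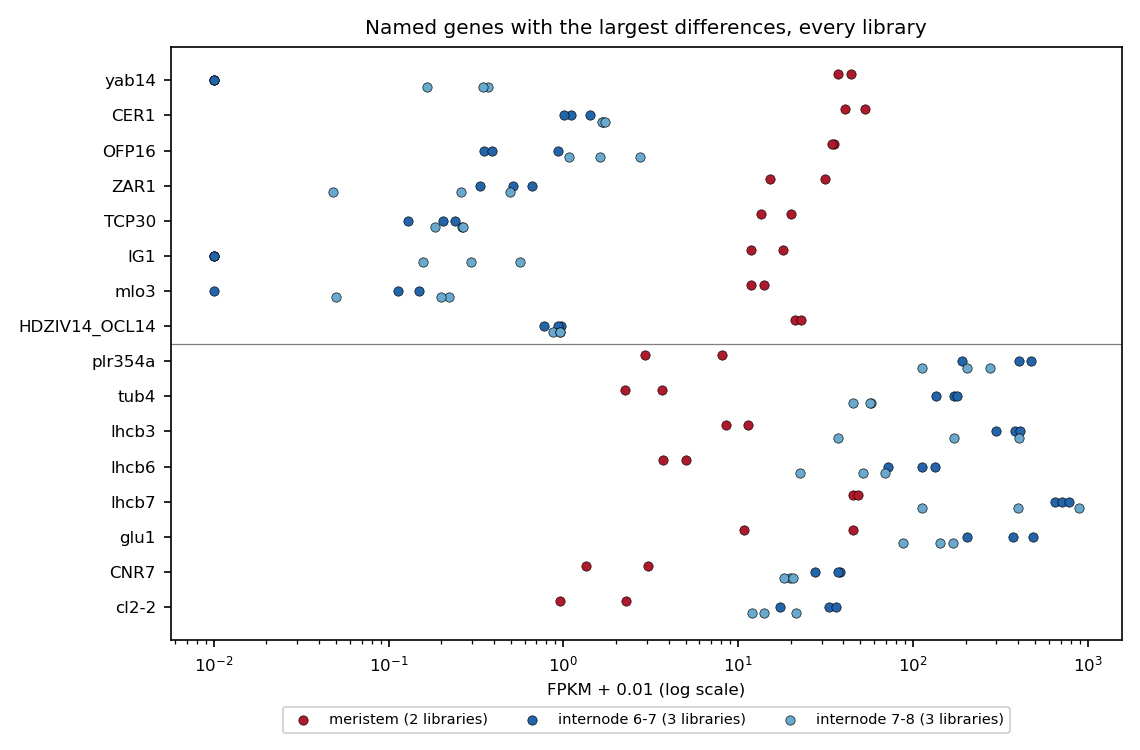
Level of the 8 named genes with the largest increase (upper block) and the 8 with the largest decrease (lower block) in every library, in FPKM + 0.01 on a log scale. Each point is 1 library, and in each row the red meristem points lie apart from the blue internode points, which reach down to values listed at 0 for yab14, IG1 and mlo3.

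Identifiers without a name reached differences of like size. Among those above 0 in every library, GRMZM2G168404 had 64.0 and 76.6 FPKM in meristem against 0.162 to 1.49 FPKM in stem, and GRMZM2G431504 had 62.4 and 61.4 against 0.0607 to 1.60 FPKM. On the other side, GRMZM2G068672 had 0.733 and 0.421 FPKM in meristem against 17.7 to 75.9 FPKM in stem.

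Leaf polarity regulators were mostly higher in meristem. Of 14 genes of the YABBY, KANADI and leaf polarity list, 10 were higher in meristem, 0 were lower and the median log2 difference was 1.62 (scaled 9 higher). After yab14 and IG1 came yab10 (GRMZM2G167824), with 14.2 and 15.3 FPKM in meristem against 0.142 to 1.82 FPKM in stem (median 0.743). kan1 (GRMZM2G056400), which specifies the lower face of leaves, had 7.81 and 8.15 FPKM in meristem against 0.129 to 0.391 FPKM in stem. rolled leaf1 (rld1, GRMZM2G109987), an HD-ZIP III factor of the opposite face, was abundant on both sides and was called only with deposited values, at 100 and 98.4 FPKM in meristem against 42.3 to 63.7 FPKM in stem (log2 difference 1.03). Its paralogue rld2 and lbl1, a gene of the small RNA pathway that limits KANADI-side identity, were not called, with log2 differences of -0.14 and -0.30. All 3 leaf primordium markers matched were higher as well, and yab14 is one of them. Their part in the result was not tested.

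Growth-regulating factors and their GIF partners had 13 of 18 members higher in meristem and 0 lower, with a median log2 difference of 1.37. GRF12 (GRMZM2G119359) had 162 and 168 FPKM in meristem against 8.70 to 23.2 FPKM in stem (median 18.4, log2 difference 3.23 ± 0.30, adjusted p = 0.00018). GRF7 (GRMZM5G850129) had 8.34 and 11.1 FPKM in meristem against 0.67 to 1.26 FPKM in stem, and GRF11 (GRMZM2G067743) had 19.2 and 20.0 against 1.89 to 4.58 FPKM. Meristem and stem values did not overlap for these 3 genes. GRF12 is also a leaf primordium marker, with 162 and 168 FPKM of that marker sum of 207 to 208 FPKM in meristem. AN3 (GRMZM2G180246), also named GIF1 (GRF1 lists the name AN3 too), a coactivator that binds these factors, was the most abundant member, at 454 and 671 FPKM in meristem against 81.2 to 369 FPKM in stem. Its levels ran in the order meristem, internode 7-8 (mean 281 FPKM) and internode 6-7 (mean 93.5 FPKM). The count was 9 after scaling, where AN3 was no longer called, and it was 8 against internode 7-8 alone. Leaving out meristem library 2 left 5 members higher.

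Most KNOX genes were not called. Of 13 KNOX, BELL and WOX genes, 1 (7.69%) was higher and 1 (7.69%) lower, against 14.6% and 5.75% of all tested genes. The median log2 difference was -0.34. kn1 (GRMZM2G017087) stood at 139 and 137 FPKM in meristem against 149 to 307 FPKM in stem (median 184), a log2 difference of -0.51 ± 0.27 that did not pass the test (adjusted p = 0.16), although both meristem values lay below all stem values. The count of lower members was 2 after scaling and without internode 6-7 library 3. gnarley1 (GRMZM2G452178) had 27.7 FPKM in both meristem libraries against 22.4 to 53.3 FPKM in stem, and lg3 (GRMZM2G087741) had 48.9 and 46.0 against 40.3 to 55.7 FPKM, so that values of both overlapped. knox3 (GRMZM2G000743) was lower, with 10.5 FPKM in both meristem libraries against 24.2 to 33.9 FPKM in stem (log2 difference -1.37 ± 0.16, adjusted p = 0.00048). The member that was higher was ns1 (GRMZM2G069028), a WOX gene of the leaf margin, at 2.66 and 1.65 FPKM in meristem against 0 in 5 stem libraries and 0.131 FPKM in the other.

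Genes of meristem size control went both ways. The leucine-rich repeat receptor gene fea3 (GRMZM2G166524) was lower, at 13.9 and 14.4 FPKM in meristem against 44.3 to 72.5 FPKM in stem (median 52.0, log2 difference -1.89 ± 0.22, adjusted p = 0.00045). abph1 (GRMZM2G035688), a cytokinin response regulator that affects where leaves arise, was higher, at 2.56 and 1.70 FPKM in meristem against 0 in 5 stem libraries and 0.0804 FPKM in internode 6-7 library 4. FEA4 (GRMZM2G133331), a bZIP factor at the meristem border, was higher at 12.6 and 16.6 FPKM against 3.44 to 7.58 FPKM in stem, a call not kept without meristem library 2 (adjusted p = 0.055). Of 7 genes on this list, 2 (28.6%) were higher and 1 (14.3%) lower, against 14.6% and 5.75% of all tested genes. The receptor genes TD1 (GRMZM2G300133) and fea2 (GRMZM2G104925) and the G protein gene ct2 (GRMZM2G064732) were not called, with log2 differences of 0.68, 0.22 and -0.20.

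Regulators of phase change, branching and flowering had 7 of 12 tested members higher and 1 lower, with a median log2 difference of 1.37 (scaled 6 higher), while 9 more members were below the level filter. TE1 (GRMZM2G085113), an RNA-binding protein that sets leaf spacing, had 4.73 and 7.93 FPKM in meristem against 0.0301 to 0.417 FPKM in stem. glossy15 (gl15, GRMZM2G160730), an AP2 factor that maintains juvenile leaf traits, had 6.62 and 4.82 FPKM in meristem against 0 to 0.642 FPKM in stem. TE1 and gl15 passed the level filter through the meristem libraries alone, the side where they are high. zfl1 (GRMZM2G098813), a maize LEAFY gene, had 10.5 and 13.9 FPKM in meristem against 0.55 to 1.87 FPKM in stem. Another AP2 gene, ids1 (GRMZM5G862109), showed a log2 difference of 2.80, at 46.7 and 32.7 FPKM in meristem against 0.729 to 8.47 FPKM in stem, a call not kept without meristem library 1 (adjusted p = 0.072). The decrease was that of GT1 (GRMZM2G421491), with 9.45 and 5.02 FPKM in meristem against 18.9 to 25.9 FPKM in stem, a name that another identifier (gt1, not called) shares, so which of them is the branching gene of that name is uncertain here. nam1 (GRMZM2G393433), also named CUC2 after the Arabidopsis boundary gene, had 10.0 and 12.1 FPKM in meristem against 0.126 to 0.586 FPKM in stem.

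SBP-box genes had 4 of 19 members (21.1%) higher, not far from the 14.6% of all tested genes, and 0 lower (scaled 3 higher). sbp21 (GRMZM2G148467) had 11.9 and 30.2 FPKM in meristem against 0.62 to 3.14 FPKM in stem, and sbp29 (GRMZM2G067624) had 67.4 and 106 against 9.72 to 25.3 FPKM. Of 19 tested MADS-box genes, 6 (31.6%) were higher and 5 (26.3%) lower, against 14.6% and 5.75% of all tested genes. zmm16 (GRMZM2G110153), a B-class flower gene, had 15 and 14 FPKM in meristem against 1.90 to 2.63 FPKM in stem (log2 difference 2.23 ± 0.17). MADS36 (GRMZM2G079727) was higher by 2.08 on the log2 scale. Of the lower genes, m28 (GRMZM2G147716) differed widely between the meristem libraries, at 3.18 and 28 FPKM against 29.3 to 52.0 FPKM in stem, and its log2 difference without meristem library 1 was -0.44. After scaling 3 MADS-box genes were higher and 5 lower, and without meristem library 1, 2 were lower.

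**Figure D3:**
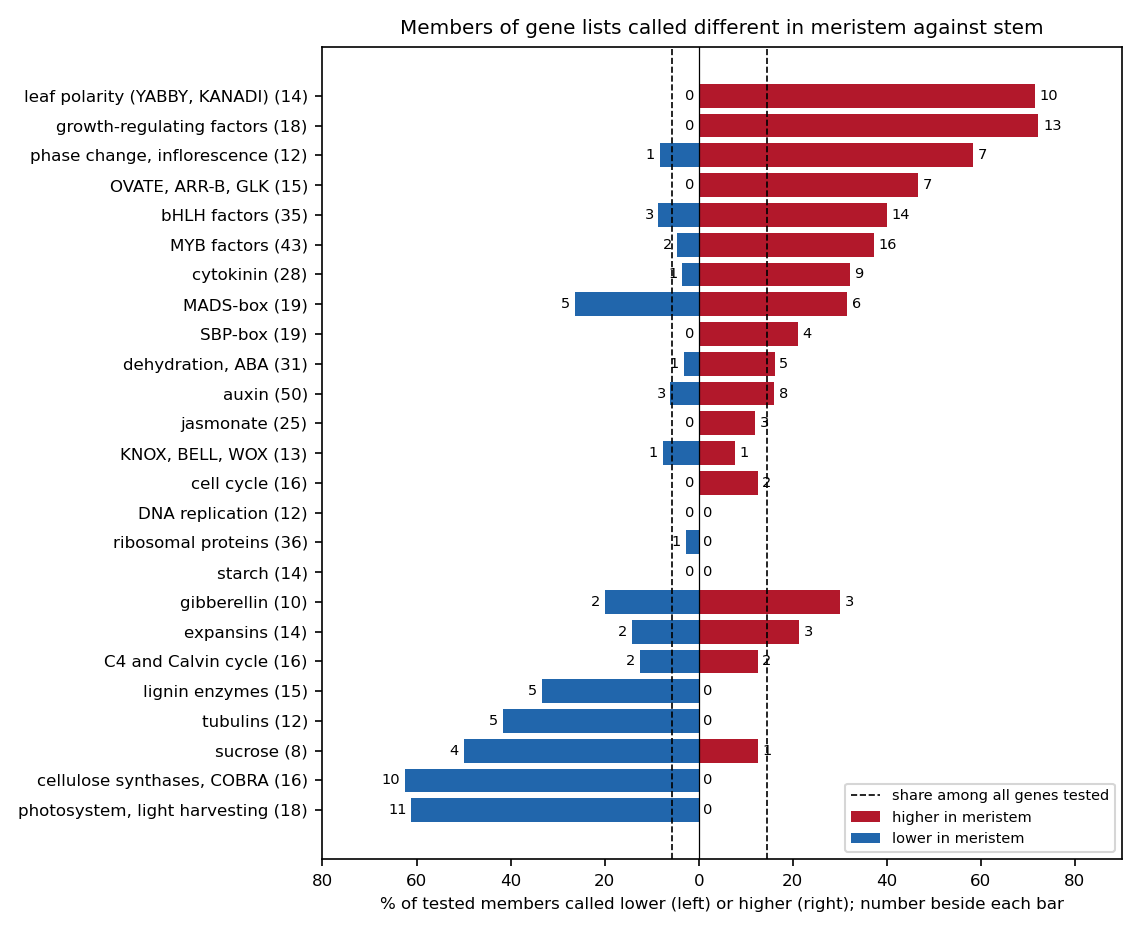
Share of the tested members of 25 gene lists called higher in meristem (red, right) and lower in meristem (blue, left), with the number of members called beside each bar and the number tested in brackets. Dashed lines mark 14.6% higher and 5.75% lower among all genes tested. Leaf polarity genes and growth-regulating factors have 71.4% and 72.2% of members higher, and the cellulose synthase and photosystem lists 62.5% and 61.1% lower.

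Of 12 DNA replication genes, 0 were called by limma, 4 had an unadjusted p under 0.05, and log2 differences ran from -0.69 to 0.75. The adjusted p of orc4 (GRMZM5G876520) and RNRS2 (GRMZM2G155546) was 0.0037 and 0.02, with log2 differences of 0.75 and -0.69 that fell short of the size threshold, and 1 member was called higher without meristem library 1. The clamp gene pcna1 (GRMZM2G030523) had 79.3 and 103 FPKM in meristem against 80.1 to 133 FPKM in stem, and its paralogue pcna2 (GRMZM2G108712) had 203 and 222 against 103 to 186 FPKM. The kinase gene cdc2 (GRMZM2G008327) had 43.5 and 39.3 FPKM in meristem against 33.4 to 44.4 FPKM in stem. Of 16 cell cycle genes, 2 (12.5%) were higher, near the 14.6% of all tested genes (scaled 1). The D-type cyclin gene cycD4 (GRMZM2G133413), of a class that starts the cell cycle, had 37.0 and 38.6 FPKM in meristem against 2.22 to 5.24 FPKM in stem (median 3.09, log2 difference 3.17 ± 0.27, adjusted p = 0.00011). cycD1 (GRMZM2G006721) had 34.3 and 38.8 against 12.4 to 21.8 FPKM, and was not called after scaling (log2 difference 0.87), without meristem library 2 (adjusted p = 0.051) or without internode 6-7 library 4 (log2 difference 0.98). Among 12 histone genes, 1 (8.33%) was higher (scaled 0), H4C13 (GRMZM2G181153), at 2463 and 1905 FPKM in meristem against 895 to 1473 FPKM in stem, a call absent after scaling, without meristem library 1 (adjusted p = 0.082) and without internode 6-7 library 2 (log2 difference 0.99).

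All 4 HD-ZIP IV genes of the epidermis list were higher in meristem, after scaling and with each library left out in turn. HD-ZIP IV proteins act in the outermost cell layer. ocl4 (GRMZM2G123140) had 24.5 and 27.3 FPKM in meristem against 1.40 to 2.14 FPKM in stem (median 1.64), ocl5 (GRMZM2G130442) had 18.7 and 23.2 against 1.45 to 2.13 FPKM, and ocl3 (GRMZM2G116658) had 19.8 and 17.9 against 1.03 to 1.91 FPKM. Their log2 differences were 3.31 ± 0.18, 2.98 ± 0.18 and 2.93 ± 0.20. ocl1 (GRMZM2G026643) was the most abundant, at 29.4 and 28.8 FPKM in meristem against 2.93 to 4.22 FPKM in stem. These 4 genes are also 4 of the 6 epidermal markers matched, and their own sum, 92.3 to 97.2 FPKM in meristem against 8.29 to 9.16 FPKM in stem, was most of the marker sum, so the markers are not separate from this list. Of 5 wax and cuticle genes, 3 were higher, namely CER1, gl15 and glossy2 (GRMZM2G098239), an acyltransferase of wax synthesis that had 5.11 and 6.14 FPKM in meristem against 0.313 to 2.83 FPKM in stem. The call of glossy2 was not kept without either meristem library (adjusted p of 0.056 and 0.075). gl1 and the elongase gene fae1 were not called, with log2 differences of -0.15 and -0.58. Outside these lists, the lipid transfer protein gene LTP3 (GRMZM2G126397) had 1389 and 1261 FPKM in meristem against 102 to 223 FPKM in stem (log2 difference 3.21 ± 0.26). It was the single higher member of 6 lipid transfer and proline-rich genes, of which 1 was lower (median log2 difference -0.06). SCR (GRMZM2G131516), a SCARECROW factor, had 89.3 and 131 against 11 to 17.7 FPKM. The other of 2 SCARECROW and SHORT-ROOT genes tested was not called, with a log2 difference of -0.79.

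Among 50 auxin genes, 8 (16%) were higher and 3 (6.0%) lower, near the 14.6% and 5.75% of all tested genes (scaled 8 and 5). Synthesis was represented by spi1 (GRMZM2G025222), a YUCCA-type monooxygenase, at 3.71 and 3.17 FPKM in meristem against 0 to 0.253 FPKM in stem. The conjugating enzyme gene GH3 (GRMZM2G378106) had 5.11 and 8.57 FPKM in meristem against 0.0698 to 0.426 FPKM in stem (log2 difference 2.68 ± 0.22). Of the transport genes, PIN1d (GRMZM2G171702) was higher at 81.2 and 103 FPKM against 25.2 to 49.2 FPKM in stem, while PIN1a and PIN10a were not called (-0.27 and -0.84). br2 (GRMZM2G315375), an ABC transporter needed for stem length, was lower, at 18.1 and 25.7 FPKM in meristem against 40.5 to 69.5 FPKM in stem (log2 difference -1.30 ± 0.20, adjusted p = 0.0018). Of the Aux/IAA repressors, AUX36 (GRMZM2G359924) and AUX15 (GRMZM2G079200) were higher by 2.37 and 2.1 on the log2 scale, and AUX5 (GRMZM2G031615) was lower, at 3.56 and 2.43 FPKM against 15.2 to 22 FPKM in stem.

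Of 28 cytokinin genes, 9 were higher and 1 lower with deposited values, but scaling left 3 higher and leaving out meristem library 1 left 5. Beside abph1, those kept after scaling were the oxidase genes CKX12 (GRMZM2G008792) and CKX4 (GRMZM5G817173), which break cytokinin down, with 2.64 and 2.27 FPKM and with 3.07 and 2.00 FPKM in meristem, against 0.0564 to 0.444 FPKM and 0.182 to 0.913 FPKM in stem. The phosphotransfer gene HP1 (GRMZM2G016439) was lower, at 51.6 and 41.3 FPKM in meristem against 77.7 to 124 FPKM in stem, and 0 members were lower without meristem library 2 or internode 6-7 library 2.

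Genes of gibberellin, a hormone that drives stem elongation, were called in both directions. Of 10 on the list, 3 (30%) were higher and 2 (20%) lower (scaled 2 higher), against 14.6% and 5.75% of all tested genes. Dwarf2 (GRMZM2G103773) had the largest increase on the list, at 7.70 and 6.69 FPKM in meristem against 0.702 to 1.65 FPKM in stem (log2 difference 1.93, adjusted p = 0.00035). Its call was kept under every alternative tried. Dwarf2 entered the list by a match of its name alone, so a part in gibberellin synthesis or response is uncertain. The count of 3 higher includes it. The early enzyme gene an1 (GRMZM2G081554), an ent-copalyl diphosphate synthase, had 14 and 10.4 FPKM in meristem against 2.98 to 7.08 FPKM in stem. d3 (GRMZM2G093195), the cytochrome P450 of the middle steps, had 6.58 and 5.76 FPKM in meristem against 0.947 to 4.01 FPKM in stem, a call not kept after scaling (adjusted p = 0.058) or without either meristem library (0.18 and 0.13). Dwarf1 (GRMZM2G036340), the oxidase that makes active gibberellin, was lower, at 0.737 and 0.456 FPKM in meristem against 4.45 to 17.9 FPKM in stem (median 10.4, log2 difference -2.67 ± 0.52, adjusted p = 0.0043). Its internode means were 5.09 FPKM in internode 7-8 and 16.1 FPKM in internode 6-7. Of the DELLA repressors of the response, d9 (GRMZM2G024973) was lower, at 19.5 and 27.0 FPKM in meristem against 42.3 to 67 FPKM in stem, and D8 (GRMZM2G144744) was not called at 92.5 and 140 FPKM against 147 to 236 FPKM. Without meristem library 1 the list had 1 higher and 1 lower. The brassinosteroid enzyme gene DWF1 (GRMZM2G057000) was also lower, with 93.3 and 93.0 FPKM in meristem against 167 to 324 FPKM in stem (log2 difference -1.43 ± 0.22), while na1 (GRMZM2G449033), which acts in the same synthesis, had 24.9 and 22.5 FPKM against 10.6 to 16.2 FPKM and was not called.

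Genes of the cellulose synthase list were mostly lower in meristem. The list also takes in cellulose synthase-like (Csl) genes, so its counts are not of cellulose synthesis alone. Of 16 tested cellulose synthase and COBRA genes, 10 were lower and 0 higher, with a median log2 difference of -1.18, and 12 were lower after scaling. CesA-9 (GRMZM2G018241) had 1.65 and 2.64 FPKM in meristem against 6.47 to 15 FPKM in stem (median 9.23, log2 difference -1.75 ± 0.30, adjusted p = 0.0024). CslF6-1 (GRMZM2G110145), of the synthases that make the mixed-linkage glucan of grasses, had 12.4 and 15.1 FPKM in meristem against 23.9 to 67.5 FPKM in stem. cesa2 (GRMZM2G027723) had 17.4 and 16.8 FPKM in meristem against 31.0 to 69.1 FPKM in stem. cesa3 (GRMZM2G039454), at 35.0 and 40.6 FPKM against a stem mean of 35.0 FPKM, and the secondary wall synthase gene cesa10 (GRMZM2G445905), at 44.6 and 50.7 FPKM against a stem mean of 65.2 FPKM, were not called. The count was 12 against internode 6-7 alone, 6 against internode 7-8 alone and 4 without either meristem library, which ended the calls of cesa2 (adjusted p of 0.056 and 0.059) and CslF6-1 (0.09 and 0.055).

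Lignin enzymes had 5 of 15 members lower and 0 higher, with a median log2 difference of -0.66 (scaled 6 lower). BM1 (GRMZM5G844562), the cinnamyl alcohol dehydrogenase of the brown midrib1 locus, had 24.2 and 19.1 FPKM in meristem against 33.4 to 88.2 FPKM in stem. cad1 (GRMZM2G046070), of the same enzyme family, had 2.80 and 2.53 against 5.04 to 13.2 FPKM, and the laccase gene Lac1 (GRMZM2G146152) had 1.29 and 1.07 against 3.41 to 5.93 FPKM. Leaving out either meristem library left 2 members lower and ended the calls of BM1 (adjusted p of 0.062 and 0.11) and cad1 (0.052 and 0.061). Against internode 7-8 alone, 3 were lower. Genes at the entry of the pathway were not called, among them PAL1 (GRMZM2G074604) with a log2 difference of -0.24. The 7 vascular secondary wall markers summed to 92.6 to 92.7 FPKM in meristem against 107 to 230 FPKM in stem. Of them 1 was called lower, BM1 itself, and 1 cesa11 identifier was listed at 0 in all 8 libraries. Their part in these results was not tested.

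Expansins, which loosen walls of growing cells, were not one-sided. Of 14 expansins and related enzymes, 3 (21.4%) were higher and 2 (14.3%) lower, against 14.6% and 5.75% of all tested genes. EXPA5 (GRMZM2G361064) had 32.9 and 15.8 FPKM in meristem against 3.59 to 10.8 FPKM in stem, and expA4 (GRMZM2G445169) had 45.0 and 52.5 against 13.1 to 28.1 FPKM. expa1 (GRMZM2G339122) was lower, at 8.16 and 4.55 FPKM in meristem against 15.9 to 30.0 FPKM in stem (log2 difference -1.74 ± 0.26, adjusted p = 0.0015). Scaling left 1 higher and 3 lower. Without meristem library 1 there were 0 higher and 1 lower, with an adjusted p of 0.089 for EXPA5 and 0.051 for expA4.

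The tubulins, the building blocks of microtubules, differed by isotype. Of 12 tested genes, 5 were lower in meristem, 0 were higher and the median log2 difference was -0.82. Beside tub4, these were TUB2 (GRMZM2G334899), with 22.7 and 15.9 FPKM in meristem against 79.6 to 128 FPKM in stem, and tub3 (GRMZM2G108766), with 34.4 and 26.8 against 124 to 214 FPKM. The alpha-tubulin genes tua5 (GRMZM2G099167) and tua6 (GRMZM2G083243) were lower by 1.56 and 2.25 on the log2 scale. After scaling 6 were lower, these 5 among them, and tub4, TUB2 and tub3 kept their calls under every alternative tried. The most abundant isotypes were not called: tua4 (GRMZM2G152466) had 1994 and 2258 FPKM in meristem against 2483 to 3703 FPKM in stem, and TUB1 (GRMZM2G164696) had 509 and 453 against 482 to 858 FPKM. Together tub2, tub3 and tub4 made up 5.87% and 5.10% of beta-tubulin FPKM in the meristem libraries against 14.3% to 28.9% in the stem libraries. Summed over 6 genes, beta-tubulin stood at 958 ± 110 FPKM in meristem (SD, n = 2) against 1828 ± 227 FPKM in stem (n = 6), and over 4 genes alpha-tubulin stood at 3240 ± 343 FPKM in meristem against 5146 ± 547 FPKM in stem. Near-identical tubulin copies may share reads, so the split between them is uncertain.

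**Figure D4:**
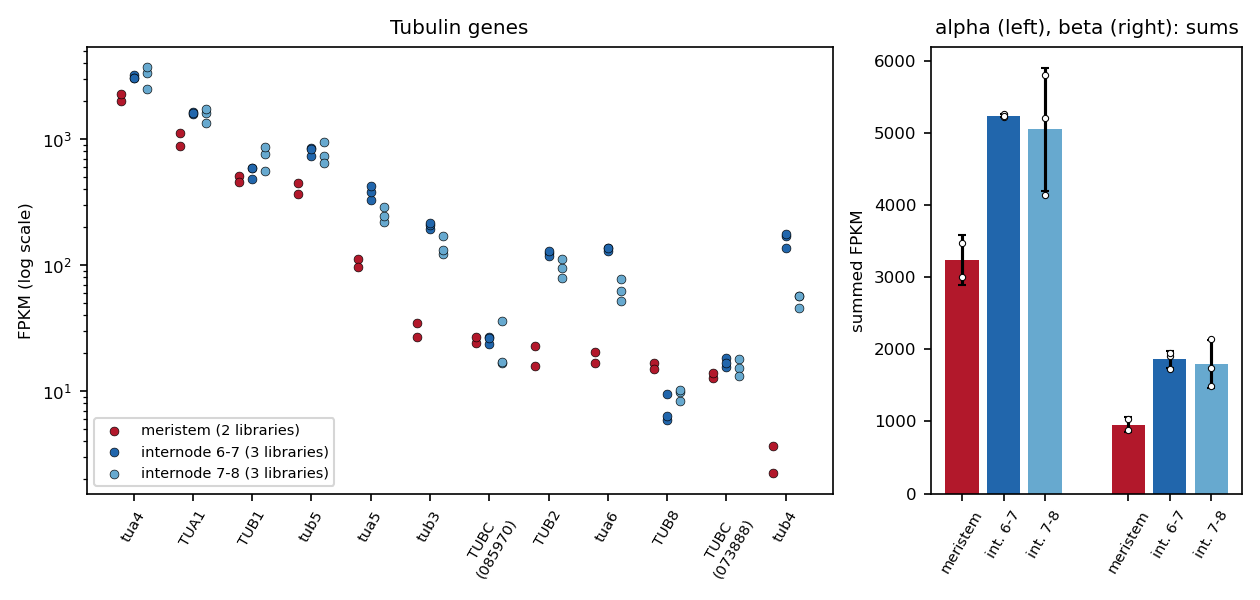
Left, level of 12 tubulin genes in every library in FPKM on a log scale, ordered by their meristem mean, with 1 point per library. Right, summed FPKM of 4 alpha-tubulin and 6 beta-tubulin genes, as bars for the mean, error bars for the SD and points for the 2 meristem and 3 + 3 internode libraries. The red meristem points of tub4 lie at 3.65 and 2.23 FPKM, below all stem points from 45.6 FPKM up.

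Photosynthesis genes were lower in meristem, with wide spread among the stem libraries. Of 18 photosystem and light-harvesting genes, 11 were lower and 0 higher, and the median log2 difference was -2.07. lhcb3, an antenna protein of photosystem II, had 11.4 and 8.52 FPKM in meristem against 37.3 to 407 FPKM in stem (median 342, log2 difference -4.37 ± 0.81, adjusted p = 0.0035). lhcb6 had 5.02 and 3.71 FPKM in meristem against 22.5 to 134 FPKM in stem, and lhcb7 had 45.5 and 48.4 against 113 to 889 FPKM. For all 3 genes internode 7-8 library 2 was the lowest stem library, yet above both meristem libraries. psad1 (GRMZM2G024150), a photosystem I subunit, had 0.234 and 0.119 FPKM in meristem against 3.73 to 17.0 FPKM in stem. Of the 11, cab-m1 (GRMZM2G351977) had groups that overlapped, at 12.8 and 8.62 FPKM in meristem against 10.6 to 172 FPKM in stem. The count was 7 against internode 7-8 alone, 5 without meristem library 1 and 6 without meristem library 2. Of 6 mature green leaf markers matched, 2 were lower, lhcb3 and the Rubisco small subunit gene ssu1 (GRMZM2G098520), both of them members of this list, and pepc (GRMZM2G083841), the leaf C4 phosphoenolpyruvate carboxylase, was listed at 0 in both meristem libraries with a stem mean of 0.0225 FPKM.

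Other C4 and Calvin cycle genes had 2 of 16 members (12.5%) higher, near the 14.6% of all tested genes. Lower were 2 (12.5%), against 5.75% of all tested genes, and 7 were lower after scaling. pep7 (GRMZM2G069542), another phosphoenolpyruvate carboxylase, was lower, at 11.5 and 18.6 FPKM in meristem against 59.7 to 77.7 FPKM in stem (log2 difference -2.14 ± 0.19, adjusted p = 0.00013). PPDK2 (GRMZM2G097457) was higher, at 2.26 and 2.56 FPKM in meristem against 0.062 to 0.192 FPKM in stem, as was me3 (GRMZM2G085019), a malic enzyme gene, at 3.65 and 5.23 against 0.66 to 1.27 FPKM. Under a filter of at least 5 FPKM in 2 libraries neither was tested, and 0 members were higher. The number of lower genes depended on single stem libraries, at 4 without internode 6-7 library 2, 1 without internode 6-7 library 3 or 4, and 7 without internode 7-8 library 2. Against internode 7-8 alone it was 1.

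Sucrose genes had 4 of 8 members lower and 1 higher. sus1 (GRMZM2G152908), a sucrose synthase that splits sucrose in sink tissue, had 525 and 483 FPKM in meristem against 815 to 3624 FPKM in stem (median 2140, log2 difference -2.02 ± 0.48, adjusted p = 0.01). The transporter gene sut4 (GRMZM2G307561) had 5.22 and 4.43 FPKM in meristem against 8.05 to 23.7 FPKM in stem. mn1 (GRMZM2G119689), a cell wall invertase, was the higher gene, at 1.40 and 1.11 FPKM in meristem against 0 to 0.176 FPKM in stem. Without meristem library 1, 1 gene was lower and without meristem library 2, 0 were, with adjusted p of 0.075 and 0.084 for sus1 and 0.063 and 0.084 for sut4, and against internode 7-8 alone 2 were lower. The phloem markers include sus1, so their sums above are not separate from it. Of 14 starch genes, 0 were called by limma with deposited values and 3 had an unadjusted p under 0.05, with log2 differences between -0.89 and 0.58. After scaling, and without meristem library 2, 1 was lower.

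**Figure D5:**
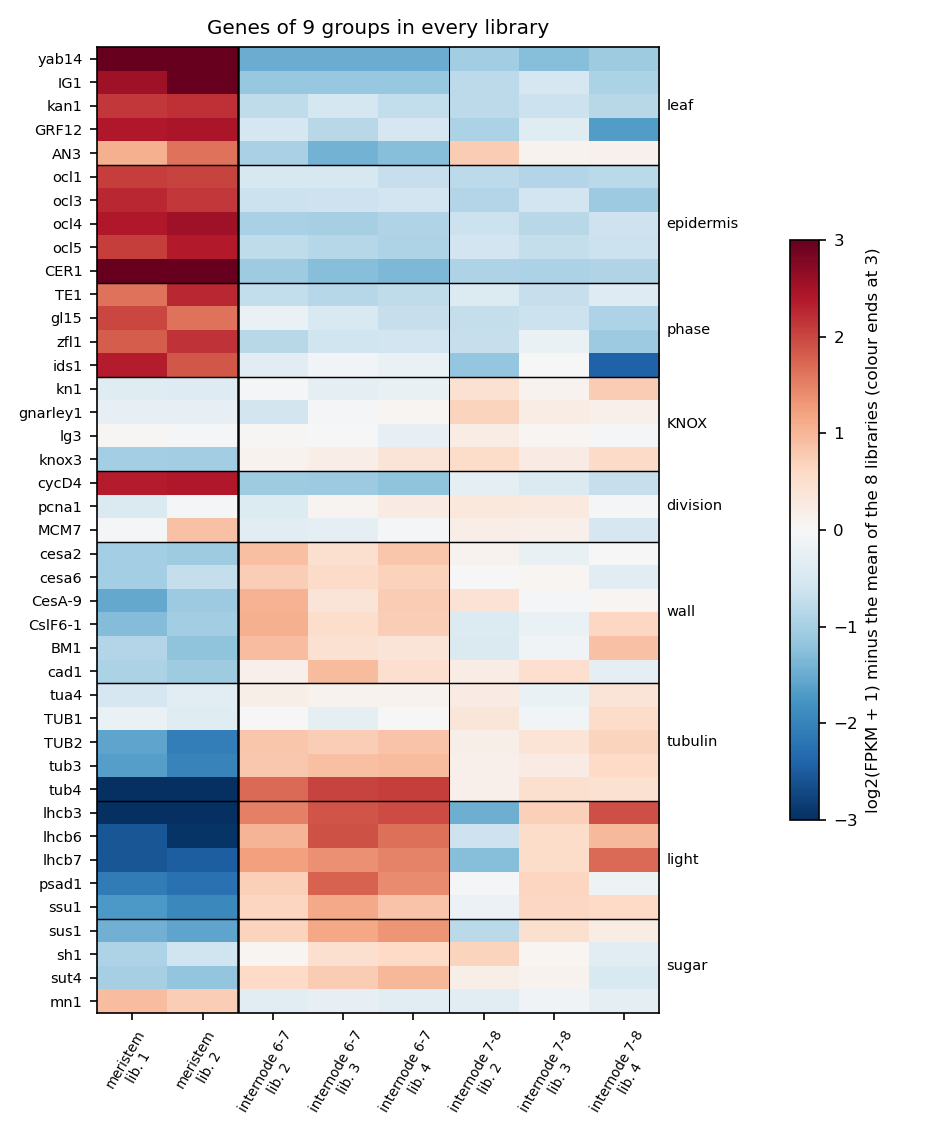
Heat map of 41 genes in 9 groups across the 2 meristem libraries (left of the thick line) and the 6 internode libraries, coloured by log2(FPKM + 1) minus the mean of the 8 libraries, with colour ending at 3 either way. Leaf, epidermal and phase genes are red in both meristem libraries, and light-harvesting genes, TUB2, tub3 and tub4 are blue there. Wall genes and knox3 are a lighter blue there. The other KNOX genes, tua4, TUB1 and most division genes are pale.

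Among other enzymes and stress genes, the jasmonate list had 3 of 25 members (12%) higher, near the 14.6% of all tested genes. Lower were 0, and 1 without internode 7-8 library 2 or 4. lox3 (GRMZM2G109130), a lipoxygenase at the start of oxylipin synthesis, had 14.4 and 19.2 FPKM in meristem against 2.40 to 6.25 FPKM in stem, and aoc1 (GRMZM2G077316), an allene oxide cyclase, had 117 and 132 against 32.2 to 52.9 FPKM. The defensin gene DEF1 (GRMZM2G153488), whose identifier matches more than 1 reference gene, had 1767 and 1479 FPKM in meristem against 458 to 896 FPKM in stem (log2 difference 1.37 ± 0.24). The pathogenesis-related gene PR-5 (GRMZM2G402631) was lower, at 1.50 and 0.372 against 2.24 to 5.77 FPKM, a call not kept without meristem library 2 (adjusted p = 0.12). Of 10 genes of benzoxazinoids, the defence compounds of young maize, 2 (20%) were lower, against 5.75% of all tested genes. They were glu1 and bx1 (GRMZM2G085381), the enzyme that opens the pathway, with 109 and 79.0 FPKM in meristem against 144 to 348 FPKM in stem. The bx1 call was not kept without either meristem library (adjusted p of 0.068 and 0.18) or without internode 6-7 library 2 (log2 difference -0.93), and 0 members were lower without meristem library 2. Of 36 ribosomal protein genes, 1 was lower and 0 higher.

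The bHLH and MYB families had many members higher in meristem. Of 35 bHLH genes, 14 were higher and 3 lower (scaled 13 and 5), against 14.6% higher and 5.75% lower among all tested genes. bHLH173 (GRMZM5G882527) had 37.5 and 36.8 FPKM in meristem against 2.35 to 4.93 FPKM in stem, and bHLH84 (GRMZM2G159456) was lower, at 4.23 and 3.06 against 14.4 to 26.6 FPKM. Without internode 6-7 library 3, 1 bHLH gene was lower. Of 43 MYB genes, 16 were higher and 2 lower (scaled 12 higher), and 10 were higher without either meristem library, with 1 and 0 lower without meristem library 1 and 2. ZmMYB31 (GRMZM2G050305), known in maize as a repressor of lignin genes, had 28 and 24.9 FPKM in meristem against 7.07 to 15.6 FPKM in stem, a call absent after scaling. Of 15 OVATE, ARR-B and GLK factors, 7 were higher and 0 lower in both versions. OFP24 (GRMZM2G100133), at 1.60 and 1.64 FPKM in meristem, was the named gene among the 42 listed at 0 in all stem libraries. In the zinc finger list 2 of 16 (12.5%) were lower, against 5.75% of all tested genes, and 0 higher (scaled 3 lower). COL8 (GRMZM2G114137), a CONSTANS-like gene, had 0.972 and 0.293 FPKM in meristem against 7.35 to 10.9 FPKM in stem, and GATA28 (GRMZM2G101058) had 15.7 and 9.44 against 66.6 to 99.9 FPKM (log2 differences -2.77 ± 0.22 and -2.69 ± 0.21).

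The internodes did not stand at one distance from the meristem. Of the 1619 genes lower in meristem, 1342 (82.9%) had an internode 6-7 mean farther from the meristem mean than the internode 7-8 mean. The same held for 1701 (41.4%) of the 4113 genes higher in meristem and for 55.7% of all tested genes. This is a description of the means, and no test was made of it. Set against the meristem by itself, internode 6-7 gave 4203 genes higher and 2193 lower, and internode 7-8 gave 3783 higher and 1115 lower.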

How the data were processed

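RNA-seq libraries were made from polyA-selected RNA with a TruSeq kit altered with dUTP to keep strand, per the labels' protocols. Bowtie2 2.1.0, TopHat2 2.0.8b and Cufflinks 2.1.1 are named in the submitters' processing notes. No genome build is given in the sources used here. Nor is it stated if reads were assigned by strand, which leaves genes that overlap or lie antisense uncertain. The authors deposited FPKM values as a single table (109715 genes, 68 columns of values). Here 8 columns were compared and 3 spikelet columns entered an alternative fit. Column codes of the remaining 57 could not be tied to a label, and those columns stayed out. Rows without a value (6) were left out. An exact 0 can be a failed estimate, so no fold is given against it.

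Genes with at least 1 FPKM in 2 libraries were tested with limma 3.58.1 (R 4.3.3, mean-variance trend, two-sided, Benjamini-Hochberg over 28146 genes) on log2(FPKM + 1), which understates the change of low genes, and again after median-of-ratios scaling. The procedure was tested on simulated data, with the spread of the stem libraries used for both sides. That test therefore does not cover the spread between the meristem libraries. Gene names, and no coordinates, were looked up in RefSeq (Zm-B73-REFERENCE-NAM-5.0). It gave 2103 tested genes a name, and 421 tested identifiers matched more than 1 reference gene. Gene lists were patterns on these names with hyphens ignored, and 36 matches of another kind of gene (14-3-3 genes among growth-regulating factors, kinesins among cell cycle genes) were set aside. Lists were described by counts and medians without a test. Genes were named by a rule, the 8 largest increases and decreases among called, named genes whose groups did not overlap and up to 3 called members of each list. Members not called were given with values only. Some further called members were named after their values were seen. Members and lists were chosen with earlier results of these data known. Alternatives covered scaling, pseudocounts of 0.1 and 0.5, filters, tissue means, each internode by itself and each library left out. Results of 1 KNOX list member are not reported here.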

Additional observations from a re-analysis of the deposited data

Results flagged for a closer look

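In 8 of the 118 genes covered by the naming rule, 1 of the 6 stem libraries stood apart from the other 5, with most of the range of the 6 values lying between it and its nearest neighbour (Dixon's 95% limit). Chance flags about 1 in 20 groups of values. The level of ns1 was 0.131 FPKM in internode 7-8 library 2 and 0 in the others, and that of abph1 was 0.0804 FPKM in internode 6-7 library 4 and 0 in the others, both close to the lower end of the scale. CKX4 and TCP7 stood higher in internode 7-8 library 3, at 0.913 FPKM against 0.182 to 0.413 FPKM and at 0.753 FPKM against 0.0658 to 0.211 FPKM. PP2C29 had 16.2 FPKM in internode 6-7 library 2 against 7.45 to 10.3 FPKM in the others. nam1 had 0.126 FPKM in internode 6-7 library 3 against 0.429 to 0.586 FPKM. In internode 7-8 library 2, COL8 had 7.35 FPKM against 9.85 to 10.9 FPKM and hsbp1 had 108 FPKM against 56.8 to 64.3 FPKM.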

How the results depend on the processing

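No paired analysis was possible because the meristem columns carry the numbers 1 and 2 and the internode columns 2 to 4, so that the groups share a single number, and the internode columns belong to no numbered sample. Leaving out 1 library at a time, the number of changed genes ran from 3686 to 5900, those higher from 2632 to 4250 and those lower from 1054 to 1788. The lowest values came without meristem library 1, where 3686 genes changed, 2632 higher and 1054 lower, and the lone meristem library was assumed to vary like the stem. Under the other alternatives (scaling, pseudocounts, filters, tissue means, spikelets in the fit, either internode by itself) the counts stayed within 1.5 times of those reported. Of the 118 genes covered by the naming rule, 0 changed direction, 86 kept their call under every alternative and 32 lost it under at least 1, with 24 lost without meristem library 1, 24 without meristem library 2, 9 against internode 7-8 alone and 6 after scaling. List counts under each alternative were computed after the data had been seen. With 2 meristem libraries and unknown read depth, small differences of low genes cannot be judged.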
